A study of Mus musculus with 10 samples.

Results

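Glul, Oat, Slc1a2, Rhbg, Lgr5, Axin2, Tbx3, Lect2, Rnf43 and Znrf3 are genes that mouse hepatocytes around the central vein express under Wnt signalling, or through which they sense and limit that signal. The 10 genes were chosen by name from the 54532 genes of the expression table, with earlier results of these data known. All 10 were above the limit on low values that left 13306 genes for testing. They were measured by bulk RNA sequencing in the livers of 10 mice. The 5 ASK1f/f controls were homozygous for a ROSA26 construct that holds murine ASK1 cDNA behind a lox-stop-lox cassette. The 5 ASK1+hep mice carried the same construct together with Alb-Cre, which removes the stop cassette in cells that express albumin, above all hepatocytes. Both genotypes were on a C57BL/6J background, received HFD for 7 weeks starting at 6 weeks of age, and were fasted for 5 h before tissue was taken. Sex was not given per liver. In every liver Xist, which females express, was at 0.01 FPKM or less, and the Y-linked Ddx3y was between 6.02 and 16.8 FPKM (Xist was named after its values were seen).

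Wnt ligands and R-spondins made by the endothelium of the central vein reach the nearest hepatocytes. They stabilise β-catenin, which acts with TCF/LEF factors on target genes, and thereby set the pericentral programme of the liver lobule. Pericentral hepatocytes capture the ammonium that escapes the periportal urea cycle and fix it in glutamine, the reaction of glutamine synthetase, which Glul encodes. Lgr5 and the ubiquitin ligases Rnf43 and Znrf3 tune the number of Frizzled receptors at the cell surface, while Axin2 feeds back on β-catenin. Bulk liver holds all zones and cell types together, so position in the lobule was not measured, and fewer cells of a type cannot be told apart from less RNA per cell.

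Libraries held 13367742 to 16163378 reads on genes. ASK1+hep replicate 3 stood apart from the other livers. It had 10.9% of its reads on mitochondrial genes against 4.19 to 6.74% elsewhere, and its short genes read high, with a median deviation of 0.70 on the log2 scale for 437 genes under 1000 bases and of -0.08 for 1828 genes over 4000 bases. Deviation and gene length were related with a Spearman rho of -0.407 over 5130 genes in this liver, -0.216 in ASK1+hep replicate 2 and -0.401 in ASK1+hep replicate 4, and between 0.107 and 0.372 in the other 7 livers. Differences are therefore also given without ASK1+hep replicate 3 and after a correction for gene length. Map3k5, the gene of ASK1, had 4.71 to 19.8 FPKM in ASK1f/f and 7.68 to 16.4 FPKM in ASK1+hep livers. The highest of all 10 values was that of the library labelled ASK1f/f replicate 5, against its label. The Map3k5 difference in log2(FPKM + 1) was 0.60, at an unadjusted p of 0.0821 and an adjusted p of 0.812 in limma. Without that library it was 0.92, at an unadjusted p of 0.000806 and an adjusted p of 0.283 in limma. All 6 hepatocyte markers examined were expressed, at a summed level of 28833 to 39990 FPKM in ASK1f/f and 33946 to 43144 FPKM in ASK1+hep, and the adipocyte markers summed to at most 0.0526 FPKM in any liver.

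The sequences before the transcription start are shown for the 4 genes of the set with the highest RNA levels, Glul, Oat, Lect2 and Slc1a2, which make up most of the RNA of the set. Each is the stretch of 250 bases before a RefSeq start on GRCm38.p6, written in the direction of transcription. Capitals mark CCAAT and the TCF/LEF word, searched on both strands in 4 spellings. The first spelling is CTTTGAA and the second spelling is CTTTGAT, while the third spelling is CTTTGTA and the fourth spelling is CTTTGTT.
Glul, chr1:153899679-153899928, plus strand: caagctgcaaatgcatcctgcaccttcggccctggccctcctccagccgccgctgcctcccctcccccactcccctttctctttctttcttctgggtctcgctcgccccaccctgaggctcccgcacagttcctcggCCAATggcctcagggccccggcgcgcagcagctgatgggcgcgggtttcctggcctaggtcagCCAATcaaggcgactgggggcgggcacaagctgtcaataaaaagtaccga
Oat, chr7:132576399-132576648, minus strand: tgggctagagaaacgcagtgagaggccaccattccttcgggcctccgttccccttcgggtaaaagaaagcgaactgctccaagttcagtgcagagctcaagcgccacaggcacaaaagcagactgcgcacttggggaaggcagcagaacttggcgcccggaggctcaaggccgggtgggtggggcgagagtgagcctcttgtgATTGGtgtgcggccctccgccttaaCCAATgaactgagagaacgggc
Lect2, chr13:56548539-56548788, minus strand: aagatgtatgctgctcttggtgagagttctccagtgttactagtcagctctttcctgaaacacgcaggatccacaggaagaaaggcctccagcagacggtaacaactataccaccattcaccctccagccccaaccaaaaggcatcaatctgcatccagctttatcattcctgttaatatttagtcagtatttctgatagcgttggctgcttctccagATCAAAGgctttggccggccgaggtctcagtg
Slc1a2, chr2:102706188-102706437, plus strand: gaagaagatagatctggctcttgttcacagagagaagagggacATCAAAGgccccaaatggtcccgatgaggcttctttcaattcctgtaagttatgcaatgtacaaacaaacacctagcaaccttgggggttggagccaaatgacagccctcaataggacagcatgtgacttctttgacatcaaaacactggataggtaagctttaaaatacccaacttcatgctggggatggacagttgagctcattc
The reverse complement of CTTTGAT stood 32 to 26 bases before the start of Lect2 and began 207 bases before that of Slc1a2. The Slc1a2 start lies inside the gene as annotated in the expression table. No spelling of the TCF/LEF word was in the windows of Glul, Oat, Axin2 and Rnf43, which says only that these letters are not in these bases. Among 32851 RefSeq promoters, 14.8% held one of the 4 spellings, which is the share that belongs to this search. CTTTGAT, the spelling found in both genes, was in 3.21%. The common promoter element CCAAT occurred 2 times in Glul and 2 times in Oat, and 33.8% of all promoters held it. TATAAA was in none of the windows of these 6 genes and in 12.4% of all promoters.

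The genotype comparison asked whether the RNA of these genes differed when ASK1 was overexpressed in hepatocytes. In 8 of the 10 genes the mean was higher in ASK1+hep on the log2(FPKM + 1) scale, and the median difference over the set was 0.24, where 48.0% of all genes tested were higher and their median difference was -0.01. Glul and Oat were higher at an unadjusted p under 0.05 and no gene of the set was lower, beside 3.05% of all genes that were higher and 2.72% that were lower at this level. Neither passed the adjusted threshold of 0.05, which 0 of 13306 genes passed, 0% of those tested, in limma with Benjamini-Hochberg adjustment, although 768 genes had an unadjusted p under 0.05. With limma-voom on reads the adjusted count was also 0, with 733 genes at an unadjusted p under 0.05. The summed level of the 10 genes was 648 to 763 FPKM in ASK1f/f and 767 to 1044 FPKM in ASK1+hep, a sum made up mostly of Glul and Oat. Without ASK1+hep replicate 3, 4 of the 10 genes (Glul, Znrf3, Slc1a2 and Oat) were higher at an unadjusted p under 0.05, against 2.35% of all genes. After the length correction they were 3 (Glul, Slc1a2 and Znrf3), against 3.34%. The median difference over the set was 0.17 without ASK1+hep replicate 3 and 0.23 after the length correction.

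**Figure D1:**
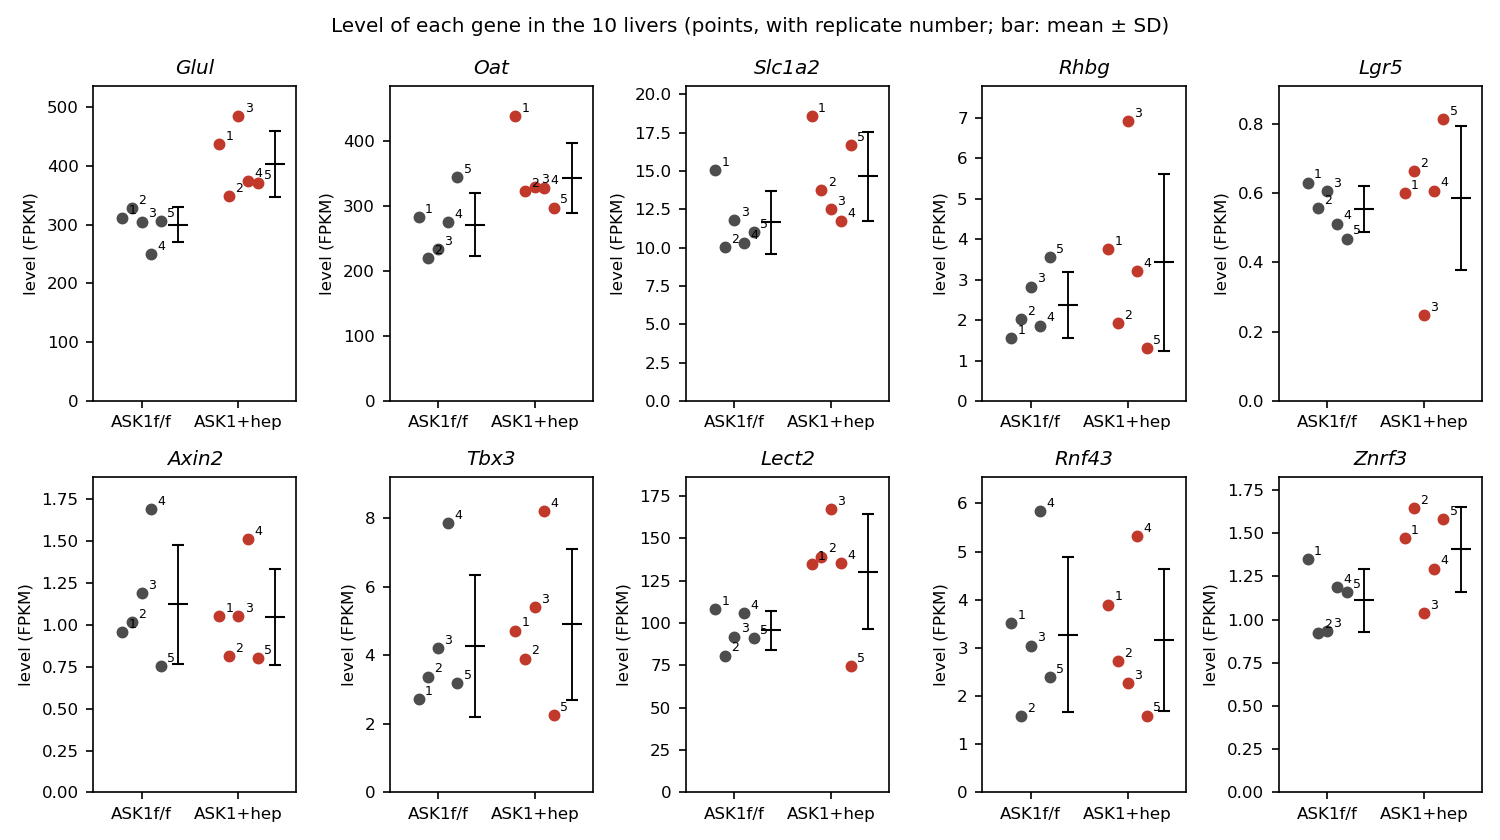
Level of each of the 10 genes in FPKM (vertical axes, from 0) in the 5 ASK1f/f livers (grey) and the 5 ASK1+hep livers (red). Each point is a liver with its replicate number, and the bar beside the points gives the mean ± SD. The groups separate completely for Glul, while the points of Lgr5, Axin2, Tbx3 and Rnf43 overlap over most of their range.

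FPKM is scaled by gene length, so levels can be set side by side between genes. In ASK1f/f livers the order of the mean levels was Glul (300 ± 29.7 FPKM, SD, n = 5), Oat, Lect2, Slc1a2, Tbx3, Rnf43, Rhbg, Axin2, Znrf3 and Lgr5 (0.555 ± 0.0663 FPKM, SD, n = 5). The ranges of Glul and Oat overlapped, as did those of neighbours from Tbx3 down to Znrf3, whereas Lect2, Slc1a2 and Lgr5 each stood clear of their neighbours. In ASK1+hep livers Rhbg and Rnf43 changed places, as did Axin2 and Znrf3, each within overlapping ranges, and Lgr5 overlapped Axin2.

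Glul encodes glutamine synthetase, which joins ammonium and glutamate in the innermost ring of pericentral hepatocytes. The gene (ENSMUSG00000026473) occupies chr1:153899944-153909723 (GRCm38, plus strand) with 7 exons in its longest transcript. It had 312, 328, 305, 249.7 and 306 FPKM in ASK1f/f replicates 1 to 5 and 438, 348, 485, 375 and 370.1 FPKM in ASK1+hep replicates 1 to 5. The lowest ASK1+hep liver, replicate 2, was still above the highest control, a separation in this direction that 0.398% of all genes showed. The means were 300 ± 29.7 and 403 ± 56.4 FPKM (SD, n = 5 each), a ratio of 1.34. The difference in log2(FPKM + 1) was 0.42 (SE 0.136, 95% interval 0.12 to 0.72), with an unadjusted p of 0.00967 and an adjusted p of 0.812 in limma. An exact two-sided permutation test over the 252 assignments of livers gave p = 0.00794, the smallest it can give. Any gene whose groups do not overlap gets this value, so it restates the separation. The difference was 0.35 without ASK1+hep replicate 3, the highest liver, and 0.42 after the length correction. Exons of Teddm2 on the opposite strand overlap Glul, and Teddm2 had 24 to 52 reads per liver where Glul had 12629 to 24795.

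Oat encodes ornithine aminotransferase, a mitochondrial enzyme that turns ornithine and 2-oxoglutarate into glutamate and a proline precursor. The gene (ENSMUSG00000030934) occupies chr7:132557478-132576398 (GRCm38, minus strand) with 10 exons in its longest transcript. It had 282, 219, 234, 275 and 344 FPKM in ASK1f/f replicates 1 to 5 and 437, 323, 329, 327 and 297 FPKM in ASK1+hep replicates 1 to 5. ASK1f/f replicate 5 lay above 4 of the 5 ASK1+hep livers, the groups overlapped, and ASK1+hep replicate 1 was far above the rest. The means were 271 ± 48.6 and 343 ± 54.4 FPKM (SD, n = 5 each), a ratio of 1.26. The log2 difference of 0.34 (SE 0.157, 95% interval 0.00 to 0.69) had an unadjusted p of 0.0494 and an adjusted p of 0.812 in limma, and the exact permutation test gave p = 0.0476. The difference was 0.43 without the ASK1f/f replicate 5 library and 0.31, at an unadjusted p of 0.0759 and an adjusted p of 0.804 in limma, after the length correction.

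Slc1a2 encodes a glutamate transporter of the cell membrane that pericentral hepatocytes share with astrocytes. The gene (ENSMUSG00000005089) spans chr2:102658659-102790784 (GRCm38, plus strand), and its longest transcript has 11 exons. It had 15.05, 10.02, 11.8, 10.3 and 11.01 FPKM in ASK1f/f replicates 1 to 5 and 18.6, 13.7, 12.5, 11.7 and 16.7 FPKM in ASK1+hep replicates 1 to 5. Replicate 1 was the highest liver of both genotypes, and ASK1f/f replicate 1 lay inside the ASK1+hep range. The log2 difference was 0.30 (SE 0.147, 95% interval -0.02 to 0.62), with an unadjusted p of 0.0623 and an adjusted p of 0.812 in limma and p = 0.0952 in the exact permutation test. It was 0.35 both without ASK1+hep replicate 3 and after the length correction, at unadjusted p of 0.0392 and 0.0164 and adjusted p of 0.998 and 0.776 in limma. Reads of Gm13872, which is antisense to it, numbered at most 4 per liver.

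Rhbg encodes an ammonium transporter of the Rhesus glycoprotein family. Its position is chr3:88242874-88254709 (GRCm38, minus strand, ENSMUSG00000104445, 10 exons). The levels were low, with 35 to 185 reads per liver, at 1.55, 2.03, 2.83, 1.87 and 3.56 FPKM in ASK1f/f replicates 1 to 5 and 3.75, 1.92, 6.93, 3.22 and 1.31 FPKM in ASK1+hep replicates 1 to 5. The ASK1+hep livers held both the highest value, in replicate 3, and the lowest, in replicate 5. The ratio of the means was 1.45, and the log2 difference of 0.29 had a 95% interval from -0.34 to 0.93. Without ASK1+hep replicate 3 the difference was 0.05. Gm38392 overlaps Rhbg on the same strand and had at most 1 read in any liver, while reads in shared exons may have been left uncounted for both.

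Lect2 encodes a secreted protein of hepatocytes that was first known as a factor attracting neutrophils and that is a target of β-catenin. Its position is chr13:56542464-56548502 (GRCm38, minus strand, ENSMUSG00000021539, 4 exons). It had 108, 80.8, 92.1, 106 and 91.0 FPKM in ASK1f/f replicates 1 to 5 and 135, 139, 168, 136 and 74.6 FPKM in ASK1+hep replicates 1 to 5. ASK1+hep replicates 1 to 4 were above every ASK1f/f liver, whereas replicate 5 was the lowest of all 10. The means were 95.7 ± 11.4 and 130.4 ± 34.0 FPKM (SD, n = 5 each), a ratio of 1.36. The log2 difference of 0.40 (SE 0.194, 95% interval -0.02 to 0.83) had an unadjusted p of 0.0610 and an adjusted p of 0.812 in limma, and p = 0.0714 in the exact permutation test. Leaving out ASK1+hep replicate 5 gave 0.59, at an unadjusted p of 0.000691 and an adjusted p of 0.383 in limma. Without that liver the Lect2 groups no longer overlapped. Of all genes, 1724 were then at an unadjusted p under 0.05 in limma, against 768 with all livers. Leaving out replicate 3 gave 0.30. With 919 bases Lect2 is the shortest gene of the set, and after the length correction the difference was 0.29.

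**Figure D2:**
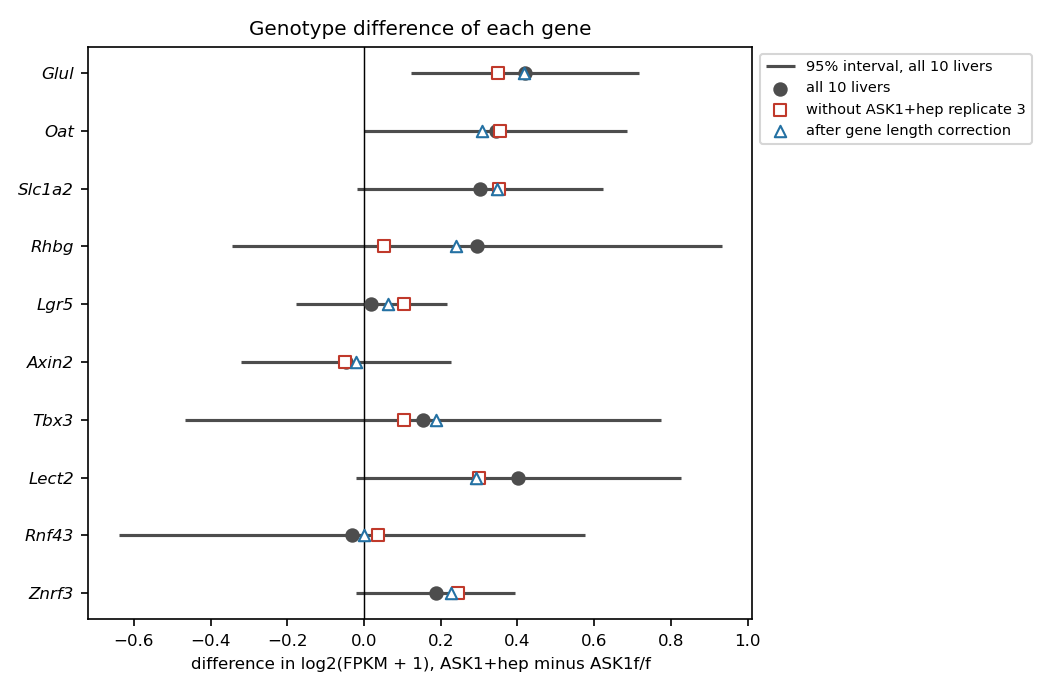
Genotype difference in log2(FPKM + 1), ASK1+hep minus ASK1f/f (horizontal axis), for the 10 genes. Filled circles and lines give the difference and its 95% interval over all 10 livers, squares the difference without ASK1+hep replicate 3, and triangles that after the gene length correction. The interval of Glul runs from 0.12 to 0.72, the square of Rhbg falls to 0.05, and the intervals of Lgr5, Axin2, Tbx3 and Rnf43 extend well to both sides of 0.

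Lgr5, the R-spondin receptor known as a marker of stem cells in the gut and of pericentral hepatocytes in the liver, was the lowest gene of the set. The gene (ENSMUSG00000020140) lies at chr10:115450311-115587780 (GRCm38, minus strand). Its 35 to 115 reads per liver gave 0.630, 0.557, 0.606, 0.512 and 0.468 FPKM in ASK1f/f replicates 1 to 5 and 0.600, 0.663, 0.247, 0.607 and 0.813 FPKM in ASK1+hep replicates 1 to 5. Both ends of the range were ASK1+hep livers, replicate 3 at the bottom and replicate 5 at the top. The log2 difference was 0.02 with a 95% interval from -0.18 to 0.22, and 0.10 without ASK1+hep replicate 3.

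Rnf43 and Znrf3 encode the membrane ubiquitin ligases that remove Frizzled receptors and that R-spondins inhibit through the Lgr receptors. Znrf3 (ENSMUSG00000041961, chr11:5276324-5444847, GRCm38, minus strand) had 1.35, 0.925, 0.932, 1.19 and 1.16 FPKM in ASK1f/f replicates 1 to 5 and 1.47, 1.65, 1.04, 1.30 and 1.58 FPKM in ASK1+hep replicates 1 to 5. ASK1+hep replicates 1, 2 and 5 were above all ASK1f/f livers, and replicates 3 and 4 lay within the control range. The log2 difference was 0.19 (SE 0.0946, 95% interval -0.02 to 0.39), with an unadjusted p of 0.0726 and an adjusted p of 0.812 in limma and p = 0.0794 in the exact permutation test. It was 0.25 at an unadjusted p of 0.0168 and an adjusted p of 0.971 in limma without ASK1+hep replicate 3, and 0.23 at 0.0194 and 0.776 after the length correction. Rnf43 (ENSMUSG00000034177, chr11:87662722-87735539, GRCm38, plus strand) had 3.51, 1.59, 3.05, 5.84 and 2.39 FPKM in ASK1f/f replicates 1 to 5 and 3.90, 2.72, 2.27, 5.33 and 1.59 FPKM in ASK1+hep replicates 1 to 5. The log2 difference was -0.03 with a 95% interval from -0.64 to 0.58. Whether the 2 ligases differed in their response was not tested.

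Axin2 encodes a scaffold of the complex that degrades β-catenin and is itself a common target of the pathway. At chr11:108920349-108950783 (GRCm38, plus strand, ENSMUSG00000000142), it had 0.957, 1.01, 1.19, 1.69 and 0.755 FPKM in ASK1f/f replicates 1 to 5 and 1.05, 0.815, 1.05, 1.51 and 0.804 FPKM in ASK1+hep replicates 1 to 5. The ASK1+hep range lay inside the ASK1f/f range, and the log2 difference was -0.05 with a 95% interval from -0.32 to 0.23. Gm11670, antisense to Axin2, had at most 1 read per liver.

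Tbx3 encodes a T-box transcription factor of pericentral hepatocytes and lies at chr5:119670669-119684724 (GRCm38, plus strand, ENSMUSG00000018604). It had 2.71, 3.37, 4.22, 7.85 and 3.19 FPKM in ASK1f/f replicates 1 to 5 and 4.72, 3.90, 5.41, 8.20 and 2.25 FPKM in ASK1+hep replicates 1 to 5. The groups overlapped throughout, and the log2 difference of 0.15 had a 95% interval from -0.47 to 0.77. Tbx3os1, antisense to it with exons that overlap, had 101 to 214 reads in ASK1f/f and 87 to 263 reads in ASK1+hep livers, where Tbx3 had 205 to 802. It is not stated whether the counting used strand, so part of either value may come from the other gene.

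Spread between livers of 1 genotype was unequal among the genes. The coefficient of variation was 9.91% and 14.0% for Glul in ASK1f/f and ASK1+hep, and 34.5% and 63.9% for Rhbg. Tbx3 reached 48.6% and 44.8% and Rnf43 49.1% and 46.6%. The values of Axin2, Tbx3 and Rnf43 were highest in replicate 4 of both genotypes, and in ASK1+hep they were lowest in replicate 5. Of all genes tested, 2.71% were highest in replicate 4 of both genotypes, and this pattern was picked out after the values were seen. Among the 101 tested genes of the pathway, zonation and glutamate lists below, 3 (Nkd1, Fzd7 and Rgn) showed it, which is 2.97% and close to the share of all genes.

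**Figure D3:**
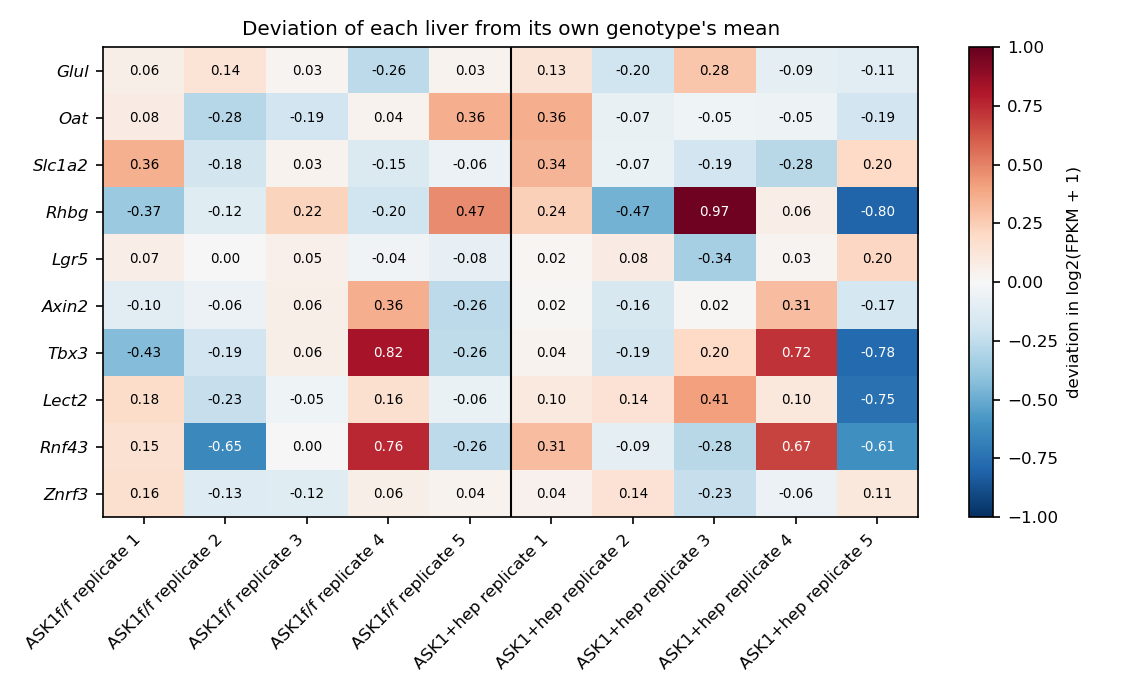
Deviation of each liver (columns) from the mean of its own genotype for the 10 genes (rows), in log2(FPKM + 1), with the value in each cell and colour from blue (low) to red (high). Tbx3 and Rnf43 are at 0.82 and 0.76 in ASK1f/f replicate 4 and at 0.72 and 0.67 in ASK1+hep replicate 4, while Rhbg is at 0.97 in ASK1+hep replicate 3.

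Glul served as the reference for variation within the genotypes, in a limma fit of each gene on genotype and on the log2(FPKM + 1) of Glul. Rhbg was the only 1 of the 9 other genes with a slope at an unadjusted p under 0.05. Its slope was 2.09 log2 units per log2 unit of Glul (SE 0.736), at an unadjusted p of 0.0164 and an adjusted p of 0.765. Positive slopes at this level were found for 2.47% and negative slopes for 2.44% of the other 13305 genes, and 0 passed the adjusted threshold, with 654 at an unadjusted p under 0.05. Without ASK1+hep replicate 3, in which both genes were highest, the Rhbg slope was 1.18 at an unadjusted p of 0.197 and an adjusted p of 1.0 in limma. The slopes of Lect2, Slc1a2 and Oat were 0.43, 0.17 and 0.15, and those of Axin2, Lgr5, Znrf3, Tbx3 and Rnf43 were negative, from -0.34 to -1.21. The genes with the lowest p-values in this fit were Mup2, a urinary pheromone-binding protein (slope -3.39), the noncoding RNA Dubr (0.63), Gm30177 (-3.06), the immunoglobulin κ constant gene Igkc (2.41) and the pseudogene Rpl26-ps6 (-2.16), each at an adjusted p of 0.765. Mup2 and Rpl26-ps6 have near-identical copies, so their values are uncertain.

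The other genes of the pathway were taken from lists. Beside the counts of the lists, 3.05% of all genes tested were higher and 2.72% lower at an unadjusted p under 0.05 in limma. These shares were 2.35% and 2.19% without ASK1+hep replicate 3, and 3.34% and 2.83% after the length correction. Of 25 Wnt and R-spondin ligands and genes of their secretion, 10 could be tested and none was at an unadjusted p under 0.05 in either direction, with a median log2 difference of -0.05. Wnt2 and Wnt9b, which central vein endothelium secretes together with the R-spondin Rspo3, were at 1.11 and 0.336 FPKM in ASK1f/f and 1.01 and 0.261 FPKM in ASK1+hep, and were named after their values were seen. Rspo3 was at 1.10 ± 0.262 and 1.55 ± 0.708 FPKM (SD, n = 5 each). Wnt4 was at 0.342 and 0.648 FPKM and Wnt5b, a ligand outside the β-catenin branch, at 4.75 and 3.35 FPKM. Leaving out ASK1+hep replicate 3 moved the log2 differences from 0.27 to 0.14 for Wnt4, from 0.25 to 0.10 for Rspo3 and from -0.39 to -0.52 for Wnt5b, the only ligand that then came below that level. None of the 11 of 17 receptors tested was at an unadjusted p under 0.05, and their median difference was 0.02. The receptor genes with the lowest p-values were the R-spondin receptor Lgr4 at 9.53 and 8.06 FPKM, Ryk at 8.36 and 9.45 FPKM and Ror1 at 0.543 and 0.474 FPKM. Leaving out ASK1+hep replicate 3 moved their log2 differences from -0.30 to -0.08, from 0.14 to 0.04 and from -0.07 to -0.02. Of 17 inhibitors 5 could be tested and none reached that level. Among them Nkd1 was at 1.13 and 0.929 FPKM, Frzb at 0.545 and 0.441 FPKM, and Dkk3 at 0.498 and 0.573 FPKM.

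Of 29 genes of Wnt signal transduction and transcription, 26 could be tested, with 3 lower and 0 higher at an unadjusted p under 0.05 and a median difference of 0.01. Of all genes tested, 2.72% were lower and 3.05% higher at this level. The 3 lower genes of the list take part in transcription by β-catenin, in roles that differ. Other genes of the list with such roles were not at that level. Examples, named after their values were seen, were Bcl9 (log2 difference -0.01), Pygo2 (0.16), Tle1 (0.07) and Tle4 (-0.02). Tle3, a Groucho corepressor of TCF/LEF factors, had 1.84, 2.45, 1.93, 2.38 and 2.21 FPKM in ASK1f/f replicates 1 to 5 and 1.20, 1.33, 1.27, 1.44 and 0.853 FPKM in ASK1+hep replicates 1 to 5. The highest ASK1+hep liver was below the lowest control, as for 0.466% of all genes. The log2 difference of Tle3 was -0.51 (SE 0.0988), with an unadjusted p of 0.000243 and an adjusted p of 0.712 in limma, and -0.52 without ASK1+hep replicate 3. The coactivator Bcl9l was at 7.50 and 6.30 FPKM (log2 difference -0.22) and Ctnnbip1, which blocks β-catenin from binding TCF factors, at 2.90 and 2.30 FPKM (-0.24). After the length correction the counts were 2 lower and 1 higher, as Bcl9l left them (-0.18) and Btrc, a ubiquitin ligase subunit that marks β-catenin for degradation, entered (0.15). Ctnnb1, the gene of β-catenin, was named after its values were seen. It had 7.55 FPKM in ASK1+hep replicate 3 and 19.4 to 31.9 FPKM in the other 9 livers, and its log2 difference was -0.54 with all livers and -0.21 without that liver.

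**Figure D4:**
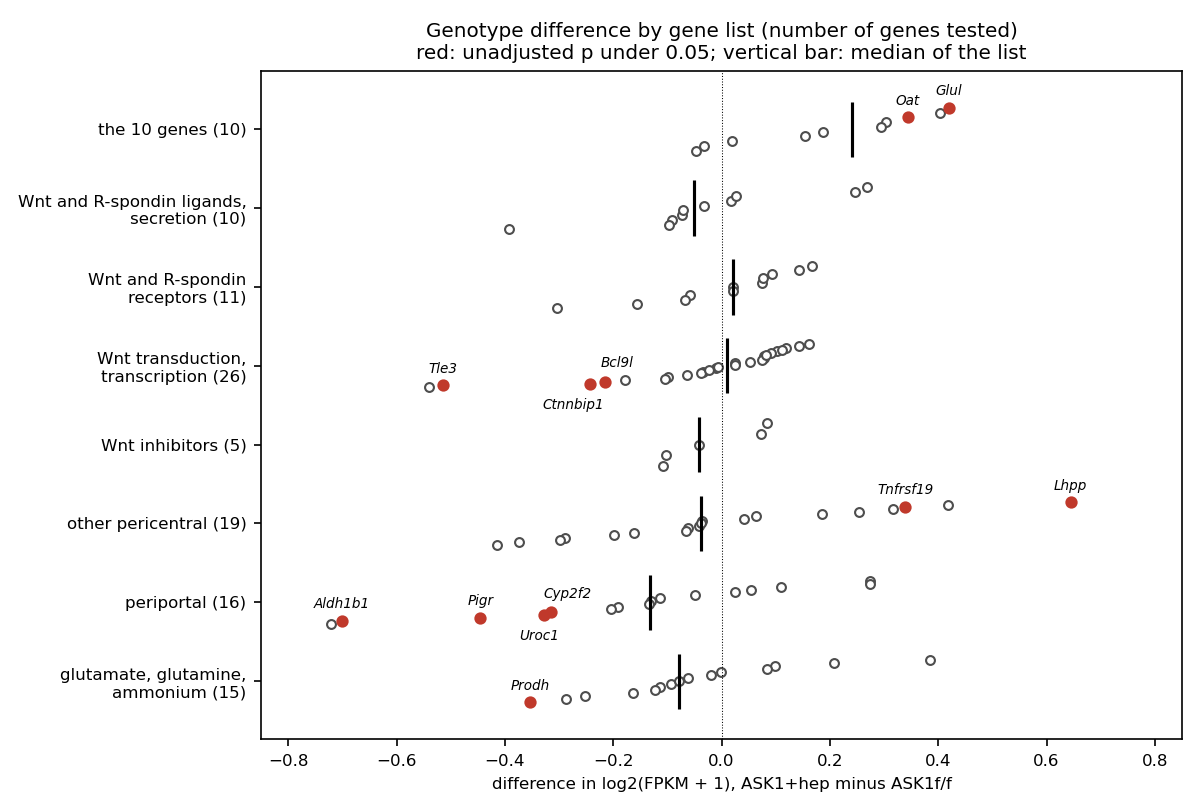
Genotype difference in log2(FPKM + 1), ASK1+hep minus ASK1f/f (horizontal axis), for each tested gene of the set and of 7 gene lists (rows, with the number of genes tested). Red points have an unadjusted p under 0.05 in limma and vertical bars are medians. The median is 0.24 for the 10 genes and lies between -0.13 and 0.02 for the lists, with Glul and Oat at the right of the top row and 4 periportal genes at the left of theirs. Without ASK1+hep replicate 3 (not drawn) the medians were 0.17 for the 10 genes and 0.13 for the other pericentral genes.

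Of 19 other pericentral genes, 2 were higher and 0 lower at an unadjusted p under 0.05, 8 were above 0, and the median difference was -0.04. Of all genes tested, 3.05% were higher and 2.72% lower at that level. Lhpp, a histidine phosphatase, was at 21.6 ± 4.11 and 35.6 ± 13.2 FPKM (SD, n = 5 each), and Tnfrsf19, a receptor of the TNF family and Wnt target, at 0.898 and 1.46 FPKM. Lhpp was highest, at 57.2 FPKM, in ASK1+hep replicate 3. Without that liver its difference fell from 0.64 to 0.46 and Lhpp remained the only 1 of the 19 at that level. The median difference of the 19 genes was 0.13 without ASK1+hep replicate 3 and -0.08 after the length correction. Cyp2e1 and Cyp1a2, pericentral drug-metabolising enzymes named after their values were seen, were at 3209 and 243 FPKM in ASK1f/f and at 3614 and 236 FPKM in ASK1+hep.

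At an unadjusted p under 0.05, 2.72% of all genes tested were lower and 3.05% higher. Of 16 genes of the opposite, periportal zone, 4 were lower and 0 higher at this level, with a median difference of -0.13. They were the mitochondrial aldehyde dehydrogenase Aldh1b1 at 25.2 and 16.0 FPKM (log2 difference -0.70), the immunoglobulin receptor Pigr at 272 and 197 FPKM (-0.45), the histidine-degrading enzyme Uroc1 at 117 and 93.4 FPKM (-0.33) and the cytochrome P450 Cyp2f2 at 553 and 444 FPKM (-0.32), the last named as part of this count. None passed the adjusted threshold in limma. Without ASK1+hep replicate 3 the counts were 3 lower, Uroc1 having left them, and 1 higher, the adhesion gene Cdh1 (named after its values were seen), with a median of -0.09. Whether the periportal and pericentral lists differed from each other was not tested.

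Among the 15 of 21 tested genes that handle glutamate, glutamine and ammonium beside the set, 1 was lower and 0 higher at an unadjusted p under 0.05, and the median difference was -0.08. Prodh, which starts proline breakdown, was at 36.6 ± 4.27 and 28.7 ± 6.15 FPKM (SD, n = 5 each), a log2 difference of -0.35. The neutral amino acid transporters Slc1a5, at 0.914 and 1.47 FPKM, and Slc1a4, at 0.875 and 1.15 FPKM, followed by p-value and were above that level. Without ASK1+hep replicate 3, Slc1a5 came below it with a log2 difference of 0.46. After the length correction the counts were 0 lower and 1 higher, with Prodh at -0.31 and above that level and Slc1a5 at 0.40 and below it. Gls2, the periportal glutaminase that releases ammonium from glutamine, was at 91.8 and 84.5 FPKM and was named after its values were seen.

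Markers of other cells were read beside these differences. Beside their counts, 3.05% of all genes tested were higher and 2.72% lower at an unadjusted p under 0.05 in limma. Of 5 central vein endothelium markers, 7 sinusoidal endothelium, 6 Kupffer cell, 6 stellate cell, 5 cholangiocyte and 5 leukocyte markers, none that could be tested was at an unadjusted p under 0.05 in either direction. The summed central vein markers were 2.59 to 5.33 FPKM in ASK1f/f and 2.42 to 5.35 FPKM in ASK1+hep, a sum of members that went both ways, such as Thbd at 1.14 and 0.635 FPKM and Cdh13 at 0.133 and 0.192 FPKM. Cdh13 came below that level after the length correction. Of the Kupffer cell markers 0 of 6 had a difference above 0, with a median of -0.19, and of the sinusoidal endothelium markers 1 of 7, with a median of -0.18. The part of these cells in the differences of the 10 genes was not tested. Of the 6 hepatocyte markers 1 was higher, the thyroxine carrier Ttr at 3725 and 5531 FPKM, and none without ASK1+hep replicate 3. Of 5 erythroid markers, 4 had a difference above 0 and 2 were higher at that level, the globin genes Hba-a2 at 12.7 ± 4.12 and 31.6 ± 14.5 FPKM and Hbb-bt at 19.7 ± 3.45 and 33.1 ± 14.9 FPKM (SD, n = 5 each). The summed erythroid level was 333 to 490.3 FPKM in ASK1f/f and 324 to 1053 FPKM in ASK1+hep, and none of these markers was at 0 in every liver. The part of red cell RNA in the differences of the 10 genes was not tested.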

How the data were processed

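Per the sources, poly-A RNA of 10 livers was sequenced, reads were cleaned (fastp in the submitters' processing notes), mapped with Hisat2 and counted with FeatureCounts. The authors deposited FPKM, which scale reads by the length of the gene and a size of the library. That size was not the sum of reads on genes, which was 0.941 to 1.12 of it, highest in ASK1+hep replicate 3. With scaling by all reads instead, the median log2 difference was 0.19 for the 10 genes and -0.05 for all genes. Glul was then at 0.34 and Oat at 0.26. Build and use of strand are not given in the sources used here. Of 54409 genes found in GENCODE M21 (GRCm38), 98.3% had the same position. FPKM times length gave whole reads (within 0.1 read), which served for depth and for the limit on low values (10 scaled reads in 5 livers, 15 in total). FPKM are not counts, so genotypes were compared with limma 3.58.1 (R 4.3.3) on log2(FPKM + 1), in which the variance follows the mean and p-values of 13306 genes are adjusted by Benjamini-Hochberg; fold changes on this scale understate those of low genes. Single genes were also compared by exact permutation (scipy 1.17.1). On simulated data for 13306 genes, 200 of which were shifted by 2 on the log2 scale, the genotype comparison called 195 of the shifted genes and 5 others. The simulated counts had the same dispersion for every gene and no effect shared by the genes of a liver. Their shift was far larger than the difference of 0.42 in Glul, the largest of the set. How often differences of that size would be called was not tested. Figures used matplotlib 3.10.9 and promoters came from RefSeq (GRCm38.p6), found for 6 of the 10 genes, not for Rhbg, Lgr5, Tbx3 and Znrf3.

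The 10 genes and all lists were chosen with earlier results of these data known. Beside them, up to 3 genes of each list with the lowest p, up to 5 in the fit on Glul and up to 3 with a negative slope in it, and Map3k5 were named; any other name is marked, or stands for a count it belongs to. Alternatives were no limit, 10 reads in every liver, a pseudocount of 0.1, limma-voom on reads, alone or weighted by library quality, scaling by all reads, a replicate block, leaving out both replicates 1 (whose animal tags differ in prefix) and leaving out each liver. The length correction (a spline with 5 degrees of freedom per liver) and all alternatives to the fit on Glul were chosen after seeing the data.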

Additional observations from a re-analysis of the deposited data

Results flagged for a closer look

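Of 22 groups of 5 livers examined (the 10 genes and Map3k5 in both genotypes), 2 held a liver whose gap to its nearest neighbour was unusually wide for the group's range, which chance gives in about 1 of 20 groups. For Oat, ASK1+hep replicate 1 had 437 FPKM, and its gap to the next liver was 0.774 of the range of the ASK1+hep livers. For Map3k5, the library labelled ASK1f/f replicate 5 had 19.8 FPKM, with a gap of 0.856 of the range.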

How the results depend on the processing

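Over 19 alternatives, Glul kept its direction and an unadjusted p under 0.05 in limma (0.00478 to 0.0385) in all 19, with log2 differences of 0.34 to 0.47 and adjusted p of 0.383 to 0.96. Oat was under 0.05 in 7 of the 19, Slc1a2 in 6, Znrf3 in 4, Lect2 in 2 and the others in none, and Oat, Slc1a2, Rhbg, Lect2 and Znrf3 kept their direction in all 19. The number of the 10 genes at that level was 2, and it was 1 with at least 10 reads in every liver or with scaling by all reads, 4 with quality weights, and 1 to 4 when livers were left out in turn: 4 without ASK1+hep replicate 3, and 1, Glul alone, without ASK1f/f replicate 2, 3 or 4 or without ASK1+hep replicate 1 or 2. The count of genes past the adjusted threshold was 0, except that it was 1 with quality weights and 0 to 1 when livers were left out, 1 without ASK1+hep replicate 5. That gene was Fgf21 both times, named after its values were seen. Counts of all genes at an unadjusted p under 0.05 ran from 557 to 1724, against 768. In the settings with 4 of the 10 genes they were 972 (quality weights) and 604 (without ASK1+hep replicate 3). They were 862 with scaling by all reads and 667 with at least 10 reads in every liver. Without ASK1f/f replicate 2, 3 or 4 or ASK1+hep replicate 2 they were 557 to 591. They were 1222 when no limit on low values was set, 1178 without ASK1+hep replicate 1 and 1724 without ASK1+hep replicate 5. In the fit on Glul the adjusted count stayed at 0 in every alternative run.

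Lgr5 turned to -0.011 with limma-voom, to -0.0032 with scaling by all reads, and to -0.0011, -0.00054 and -0.032 without ASK1f/f replicate 5, ASK1+hep replicate 2 and ASK1+hep replicate 5, in a range of -0.032 to 0.10 over the livers left out. Rnf43 turned to 0.0061, 0.16, 0.037 and 0.12 without ASK1f/f replicate 1, ASK1f/f replicate 4, ASK1+hep replicate 3 and ASK1+hep replicate 5, in a range of -0.20 to 0.16, and to 0.00066 after the length correction. Axin2 turned to 0.043 without ASK1f/f replicate 4, in a range of -0.12 to 0.043, and Tbx3 to -0.026 without ASK1+hep replicate 4, in a range of -0.026 to 0.36. The cause was not tested.

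Same-numbered livers of the genotypes deviated together with correlations of 0.0212 to 0.174, of which 2 of 5 were over 0.1, and 6 of 10 livers matched best with their own number. The mean correlation was 0.107 for livers of the same number and -0.0275 for livers of different numbers. Deviations were taken from each genotype's mean, so the second value largely follows from the first. The paper calls its controls littermates, and animal tags are consecutive in 4 of the 5 pairs. No label says that a number marks a shared litter or day. The numbers were therefore not taken as a pairing, and whether they mark one is not known. With the replicate block the counts were 2 of the 10 genes (Glul and Slc1a2), 880 genes at an unadjusted p under 0.05 and 0 past the adjusted threshold. The block also moved counts of the lists at an unadjusted p under 0.05: the periportal genes went from 4 lower to 1 (Aldh1b1, with Pigr, Uroc1 and Cyp2f2 lost), Wnt transduction from 3 lower to 2 (Bcl9l lost), glutamate genes from 1 lower to 2 (Got1 joined), ligands from 0 to 1 higher (Wnt4), other pericentral genes from 0 to 1 lower (Ccnd1), central vein markers from 0 to 1 lower (Thbd), erythroid markers from 2 to 3 higher (Hba-a1) and hepatocyte markers from 1 higher to 0 (Ttr lost).

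Depth limits Lgr5 and Rhbg most, with as few as 35 reads in a liver.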
